A study of Homo sapiens with 12 samples.

Results

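HMGCS1, SQLE, INSIG1, SREBF2, IDI1, DHCR7 and LSS are genes of cholesterol synthesis and of its control by the transcription factor SREBP2. These 7 genes were taken by symbol from the 46350 named genes of 12 RNA sequencing libraries, and each of the 7 symbols matched 1 gene. The libraries came from SKOV3, a cisplatin-sensitive line of human epithelial ovarian cancer cells, and SKOV3/DDP, its cisplatin-resistant counterpart. Each line was left untreated or was treated with paeonol (PAE), a phenolic compound of peony root, which gave 4 groups of 3 libraries. The labels give no dose, time or vehicle for PAE and no date of library preparation. Whether both lines received the same dose is not given in the sources used here, so that in comparisons of treated lines a difference in dose and one between the lines cannot be told apart. Each resistant and sensitive group stands for 1 cell line. The deposited design speaks of biological and of experimental triplicates without saying which the 3 libraries are. The p-values therefore measure the spread between these samples, which may be technical.

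Cells make cholesterol from acetyl-CoA through mevalonate, isoprenoid units, squalene and lanosterol. SREBP2, the product of SREBF2, is held in the endoplasmic reticulum by SCAP and INSIG proteins while sterols are plentiful. When sterols fall, SREBP2 moves to the Golgi, is cut by the proteases encoded by MBTPS1 and MBTPS2, and its released part enters the nucleus. There it binds sterol regulatory elements, commonly beside CCAAT boxes bound by NF-Y and GC boxes bound by SP1, in genes of cholesterol synthesis and uptake, and in INSIG1 and SREBF2 themselves. Of the 7 genes, SREBF2 and INSIG1 are regulators, HMGCS1 and IDI1 act before squalene, and SQLE, LSS and DHCR7 act between squalene and cholesterol.

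The libraries held between 14610008 and 18263479 counts each. One property of them bears on all 7 genes. Across 11201 genes, the deviation of a library from the mean of all 12 rose with the GC content of the gene in the 3 untreated SKOV3 libraries, with Spearman's rho of 0.745 to 0.770, and fell with it in the other 9, with rho of −0.632 to −0.410. Deviations from a shared mean balance over the 12 libraries, so the fall in the 9 is not independent of the rise in the 3. The scaling factors of the trimmed mean of M values (TMM) were 0.644 to 0.674 in the 3 untreated SKOV3 libraries and 0.975 to 1.23 in the other 9. This trend and the untreated SKOV3 group cannot be told apart. The 7 genes lie on both sides of it, since the longest transcript held 40.2% GC for HMGCS1, 41.1% for IDI1, 46.0% for INSIG1 and 46.5% for SQLE, but 57.1% for SREBF2, 58.3% for LSS and 58.3% for DHCR7. For the 7 genes and the gene lists, comparisons with untreated SKOV3 are therefore given as counted and again after GC content and length were fitted as a curve per library and the curve was taken out, called trend removal here. The trend could be removed for genes with known GC content and length, 13982 in the fit of the untreated libraries and 15090 in that of all 12. As to identity, KRT8 and KRT18, keratins of simple epithelia, were high in all groups, with at least 353 CPM (counts per 1000000, here of library totals). KRT7 was at a mean of 2367 CPM in SKOV3 but 1.24 in SKOV3/DDP, and EPCAM at 0.838 and 304. The other epithelial markers also differed between the untreated lines, with CDH1 at 5.01 and 461 CPM, KRT19 at 5.02 and 1434, and ERBB2 at 201 and 103. Whether the lines share an origin was not tested here, so differences between them cannot be told apart from differences due to resistance. Among markers of other cells, the 4 of leukocytes summed to 48.2 to 117 CPM over the libraries. CD68, at group means of 29.1 to 103 CPM, and CD14, at 44.5 CPM in SKOV3 and 38.9 after PAE but 2.85 in SKOV3/DDP, made up nearly all of it, while PTPRC was at or below 0.115 CPM. The 5 fibroblast markers summed to 0.820 to 34.5 CPM and the 3 endothelial ones to 0.410 to 12.9, both highest in PAE-treated SKOV3, where COL3A1 had a mean of 11.5 CPM and PECAM1 9.27. COL1A2 and CDH5 were at 0 in every library. The part of these markers in the results was not tested. Of the ovarian markers, PAX8 was at 19.5 CPM in SKOV3 and 4.39 in SKOV3/DDP, and SOX17 was at 0 throughout.

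The stretch before the start of 3 of the genes is shown because it holds, or lacks, the letters that SREBP2 and NF-Y are known to bind. SREBF2 stands for the regulators, HMGCS1 for the genes that were lowest in untreated SKOV3, and LSS for those that were highest there. The sequences are the RefSeq windows on GRCh38.p14 before the outermost annotated start, 5′ to 3′ on the strand of the gene. For HMGCS1, only the 185 bases of its first window that lie before that start are shown. Capitals mark the core of the sterol regulatory element, TCACNCCAC, and the CCAAT box, here on the opposite strand as ATTGG.
SREBF2, chr22:41832855-41833104, plus strand: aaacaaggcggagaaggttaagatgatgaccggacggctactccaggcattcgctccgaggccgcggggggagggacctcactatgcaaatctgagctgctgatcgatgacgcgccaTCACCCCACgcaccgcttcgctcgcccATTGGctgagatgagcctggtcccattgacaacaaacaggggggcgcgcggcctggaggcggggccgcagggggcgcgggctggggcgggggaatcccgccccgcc
HMGCS1, chr5:43313478-43313662, minus strand: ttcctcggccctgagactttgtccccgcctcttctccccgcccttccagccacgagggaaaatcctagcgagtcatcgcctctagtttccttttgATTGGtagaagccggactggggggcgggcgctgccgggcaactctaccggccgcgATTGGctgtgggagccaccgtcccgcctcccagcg
LSS, chr21:46228775-46229024, minus strand: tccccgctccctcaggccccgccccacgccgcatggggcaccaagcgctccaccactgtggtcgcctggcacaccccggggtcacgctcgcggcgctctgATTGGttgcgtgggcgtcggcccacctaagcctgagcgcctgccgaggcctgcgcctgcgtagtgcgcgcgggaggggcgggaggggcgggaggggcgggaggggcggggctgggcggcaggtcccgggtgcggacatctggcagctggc

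Within the 250 bases before each start, on both strands, TCACNCCAC occurred in 310 of 35116 windows of all genes, or 0.883%. Among the 6 genes with a window it occurred in SREBF2 alone, with its first base 133 bases before the start. CCAAT occurred in 32.0% of all windows and in a window of 6 of the 6 genes, and the GC box GGGCGG in 42.6% and in 6 of 6. HMGCS1 and DHCR7 had 2 windows each and IDI1 had 3, and a gene counted if any of its windows matched. The shares are per window, so the counts of genes cannot be read as an excess over them. CCAAT was not in every window of HMGCS1, IDI1 and DHCR7. The inverted CCAAT box of SREBF2 began 106 bases before the start, downstream of its sterol regulatory element, and HMGCS1 held inverted CCAAT boxes that began 155 and 100 bases before the start to which its first window belongs, a start inside the annotated gene. None of the 3 motifs contains another. A match of letters is a description and not evidence of binding.

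SREBF2 (Gene ID 6721, chr22:41833105-41907308, plus strand, GRCh38) encodes the SREBP2 precursor. All levels of single genes below are TMM-normalised CPM. In untreated SKOV3, SREBF2 stood at 185, 137 and 165 CPM in the 3 libraries (162 ± 24.2, mean ± SD, n = 3). PAE-treated SKOV3 had 43.8, 85.3 and 45.1 CPM (58.1 ± 23.6, n = 3). The untreated resistant line had 67.6, 58.7 and 60.5 CPM (62.3 ± 4.72, n = 3), and after PAE it had 41.7, 36.0 and 66.6 CPM (48.1 ± 16.3, n = 3). Untreated SKOV3 was thus the highest group, with no library of another group reaching it, while the other 3 groups overlapped one another. Against untreated SKOV3, SREBF2 was 2.71-fold lower in untreated SKOV3/DDP (log2 fold change −1.44, SE 0.17, adjusted p = 6.6e-05, edgeR quasi-likelihood test). With PAE, SREBF2 fell 2.79-fold in SKOV3 (log2 fold change −1.48, SE 0.29, adjusted p = 0.000242, edgeR). In bulk RNA, fewer cells that express a gene and less of its RNA per cell cannot be told apart, here and for the genes that follow.

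INSIG1 (Gene ID 3638, chr7:155297878-155310235, plus strand) encodes the sterol-dependent anchor of SCAP. It stood at 28.6, 25.7 and 27.3 CPM in untreated SKOV3 (27.2 ± 1.41, n = 3) and at 84.6, 29.4 and 26.3 CPM after PAE (46.8 ± 32.8, n = 3). Of the treated libraries, 1 thus lay well above the untreated ones, 1 just above the highest of them and 1 among them. By library size alone they were at 99.9, 35.8 and 32.4 CPM, all above the untreated ones at 16.6 to 18.6. SKOV3/DDP had 80.6, 54.7 and 58.0 CPM untreated (64.4 ± 14.1, n = 3) and 77.8, 77.9 and 81.4 CPM with PAE (79.0 ± 2.01, n = 3). Every SKOV3/DDP library lay above every untreated SKOV3 library, and INSIG1 was 2.27-fold higher there (log2 fold change 1.18, SE 0.21, adjusted p = 0.000647, edgeR). The PAE contrast in SKOV3 did not pass the threshold of 0.05 (log2 fold change 0.78, SE 0.35, adjusted p = 0.0538, edgeR). Without replicate 1 of PAE-treated SKOV3, that log2 fold change was 0.04 (adjusted p = 0.896), and without replicate 2 or 3 it was 1.03 or 1.07 and passed the threshold.

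HMGCS1 (Gene ID 3157, chr5:43287470-43313477, minus strand) encodes the cytosolic HMG-CoA synthase, an early enzyme of the mevalonate pathway. It was at 8.60, 4.60 and 5.85 CPM in untreated SKOV3 (6.35 ± 2.05, n = 3), which rest on 97, 54 and 69 counts. After PAE it was at 251, 92.9 and 102 CPM (149 ± 88.4, n = 3). SKOV3/DDP had 51.3, 106 and 40.5 CPM untreated (66.0 ± 35.3, n = 3) and 42.5, 46.5 and 58.0 CPM with PAE (49.0 ± 8.07, n = 3). No treated SKOV3 library came near the untreated ones, and the SKOV3/DDP groups overlapped each other. HMGCS1 had the largest log2 fold change of the 7 genes with PAE in SKOV3, a 23.4-fold rise (log2 fold change 4.55, SE 0.47, adjusted p = 3.61e-07, edgeR). Against the same libraries it was 9.99-fold higher in untreated SKOV3/DDP (log2 fold change 3.32, SE 0.42, adjusted p = 0.000103, edgeR).

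IDI1 (Gene ID 3422, chr10:1039152-1056704, minus strand) encodes the isomerase that interconverts the isoprenoid units. Its libraries were at 5.68, 5.11 and 6.27 CPM in untreated SKOV3 (5.69 ± 0.579, n = 3) and at 124, 41.8 and 53.2 CPM after PAE (73.0 ± 44.5, n = 3). In SKOV3/DDP they were at 56.7, 66.6 and 42.8 CPM untreated (55.4 ± 11.9, n = 3) and at 63.5, 60.9 and 76.2 CPM with PAE (66.9 ± 8.17, n = 3). Untreated SKOV3 was again the one low group, and the other 3 overlapped. IDI1 rose 12.8-fold with PAE in SKOV3 (log2 fold change 3.68, SE 0.37, adjusted p = 2.86e-07, edgeR) and was 9.33-fold higher in untreated SKOV3/DDP (log2 fold change 3.22, SE 0.24, adjusted p = 5.22e-06, edgeR). WDR37, on the opposite strand, overlaps IDI1 and was at a mean of 23.1 CPM of library totals. The strand of counting is not given in the sources used here, so the split of reads between these genes is uncertain.

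SQLE (Gene ID 6713, plus strand of chromosome 8) encodes squalene epoxidase, the first oxygen-requiring and a rate-controlling step of the sterol branch. It was at 10.9, 5.79 and 9.15 CPM in untreated SKOV3 (8.62 ± 2.60, n = 3) and at 39.1, 30.8 and 30.4 CPM after PAE (33.4 ± 4.93, n = 3). SKOV3/DDP had 36.6, 31.7 and 29.5 CPM untreated (32.6 ± 3.61, n = 3) and 31.6, 28.8 and 35.5 CPM with PAE (32.0 ± 3.35, n = 3). Outside untreated SKOV3, the 9 libraries of SQLE thus lay within 28.8 to 39.1 CPM. SQLE rose 3.87-fold with PAE in SKOV3 (log2 fold change 1.95, SE 0.25, adjusted p = 3.51e-06, edgeR) and was 3.63-fold higher in untreated SKOV3/DDP (log2 fold change 1.86, SE 0.27, adjusted p = 0.000214, edgeR).

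LSS (Gene ID 4047, chr21:46188446-46228774, minus strand) encodes lanosterol synthase, which folds oxidosqualene, the product of SQLE, into the first sterol. It ran opposite to SQLE. Its libraries were at 63.1, 65.2 and 71.0 CPM in untreated SKOV3 (66.4 ± 4.13, n = 3) and at 5.81, 10.6 and 5.84 CPM after PAE (7.40 ± 2.74, n = 3). SKOV3/DDP had 11.6, 6.82 and 6.86 CPM untreated (8.42 ± 2.75, n = 3) and 7.50, 4.51 and 18.4 CPM with PAE (10.1 ± 7.29, n = 3). Every untreated SKOV3 library lay above every other library. LSS fell 8.95-fold with PAE in SKOV3 (log2 fold change −3.16, SE 0.44, adjusted p = 9.04e-06, edgeR) and was 8.22-fold lower in untreated SKOV3/DDP (log2 fold change −3.04, SE 0.26, adjusted p = 1.05e-05, edgeR).

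DHCR7 (Gene ID 1717, chr11:71434411-71448393, minus strand) encodes the reductase that turns dehydrocholesterol into cholesterol. Its libraries were at 114, 119 and 125 CPM in untreated SKOV3 (119 ± 5.29, n = 3) and at 23.6, 37.2 and 24.3 CPM after PAE (28.4 ± 7.67, n = 3). SKOV3/DDP had 62.2, 63.5 and 53.4 CPM untreated (59.7 ± 5.48, n = 3) and 37.9, 28.0 and 41.2 CPM with PAE (35.7 ± 6.89, n = 3). The 2 untreated groups did not overlap each other or any treated group, and the 2 treated groups overlapped. DHCR7 fell 4.19-fold with PAE in SKOV3 (log2 fold change −2.07, SE 0.23, adjusted p = 8.03e-07, edgeR). In SKOV3/DDP it fell 1.67-fold (log2 fold change −0.74, SE 0.22, adjusted p = 0.023, edgeR), the only one of the 7 genes that passed the test with PAE in that line.

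**Figure D1:**
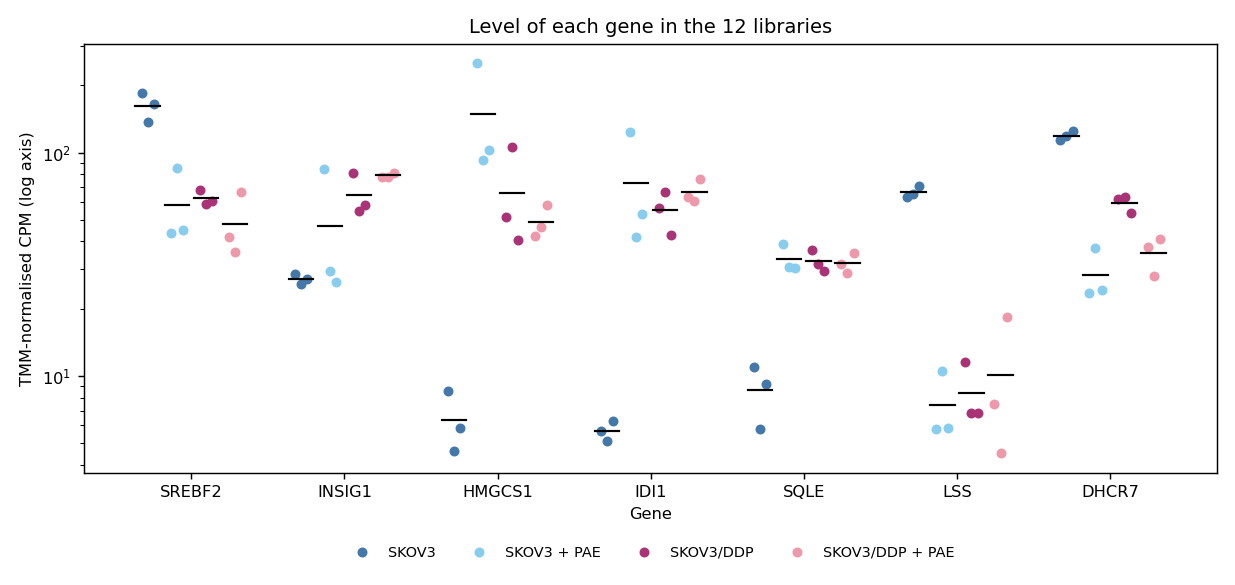
TMM-normalised CPM (log axis) of the 7 genes, with a point for each of the 12 libraries, coloured by group, and a line at the mean of each group of 3. HMGCS1, IDI1 and SQLE lie at 4.60 to 10.9 CPM in untreated SKOV3 and at 28.8 to 251 CPM elsewhere, while SREBF2, LSS and DHCR7 are highest in untreated SKOV3.

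Per kilobase of annotated exon, the order of the genes also differed between groups. DHCR7 had the highest level of the 7 per kilobase in untreated SKOV3 (43.1 CPM per kilobase) and in untreated SKOV3/DDP (21.6). HMGCS1 had the highest in PAE-treated SKOV3 (23.0) and INSIG1 in PAE-treated SKOV3/DDP (25.7). With the trend removed, INSIG1 (16.5 CPM per kilobase) was above DHCR7 (15.3) in untreated SKOV3, and DHCR7 (14.3) above HMGCS1 (13.3) in PAE-treated SKOV3. As counted, the lowest level per kilobase was that of IDI1 in untreated SKOV3 (0.871) and that of LSS in the other 3 groups (0.793 to 1.08). The exon length of LSS, 9341 bases, joins the exons of all its transcripts, which lowers its value per kilobase.

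The first comparison asked how the resistant line differed from the sensitive line before treatment. INSIG1, HMGCS1, IDI1 and SQLE were higher and SREBF2, LSS and DHCR7 lower in SKOV3/DDP, so that 7 of 7 genes passed the test, 4 of them higher. Over all 15323 genes tested, 84.7% passed, 46.1% higher and 38.5% lower, and the libraries of the groups did not overlap for 86.4% of genes and for 7 of the 7. A share of 7 in 7 is thus close to that of genes in general. An exact permutation test of 3 libraries against 3 cannot go below 0.1 (two-sided), and it gave 0.1 for each of the 7. With the trend removed, 5 of the 7 passed, against 69.8% of all genes, 36.7% higher and 33.1% lower, and DHCR7 changed sign, from −1.06 to 0.89 (SE 0.15, adjusted p = 0.000829, edgeR). LSS remained lower (−1.95, SE 0.25, adjusted p = 0.000158, edgeR), as did SREBF2 (−0.38, SE 0.14, adjusted p = 0.0368, edgeR). SQLE (0.92, SE 0.21, adjusted p = 0.00414, edgeR) and IDI1 (0.60, SE 0.23, adjusted p = 0.0413, edgeR) remained higher. HMGCS1 (0.62, SE 0.34, adjusted p = 0.135) and INSIG1 (0.14, SE 0.20, adjusted p = 0.563) no longer passed edgeR's test.

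The second comparison asked what PAE did in SKOV3. HMGCS1, IDI1 and SQLE rose and SREBF2, LSS and DHCR7 fell, so that 6 of 7 genes passed the test, 3 in each direction. The background was 75.3% of 17133 genes, 42.6% higher and 32.7% lower, and libraries did not overlap for 77.4% of genes and for 6 of the 7. After trend removal, 4 of the 7 passed, against 50.4% of all genes, 28.4% higher and 22.0% lower. HMGCS1 (1.63, SE 0.38, adjusted p = 0.00272, edgeR), IDI1 (0.85, SE 0.32, adjusted p = 0.0403) and SQLE (0.81, SE 0.18, adjusted p = 0.00239) were higher with PAE, and LSS was lower (−1.87, SE 0.37, adjusted p = 0.000954). SREBF2 (−0.29, SE 0.20, adjusted p = 0.24), DHCR7 (−0.10, SE 0.17, adjusted p = 0.661) and INSIG1 (−0.50, SE 0.34, adjusted p = 0.229) did not pass edgeR's test after the removal. Scaled by library size alone, the log2 fold change of SREBF2 was −0.60 (adjusted p = 0.0669, edgeR). This comparison and the first share the untreated SKOV3 libraries, so the likeness of their values for the 7 genes is not independent.

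The third comparison asked what PAE did in SKOV3/DDP. DHCR7 fell and was the only gene to pass the test, 1 of 7, against a background of 26.4% of 17133 genes, 11.8% higher and 14.7% lower. Libraries did not overlap for 1 of the 7 genes, DHCR7, and for 45.1% of all genes. The other 6 had log2 fold changes between −0.43 for HMGCS1 (95% interval −1.27 to 0.41) and 0.29 for INSIG1 (95% interval −0.44 to 1.03). Of these 6, the narrowest interval was that of SQLE, with a log2 fold change of −0.03 (95% interval −0.53 to 0.47), and the widest that of LSS, at 0.26 (−0.62 to 1.14). The call of DHCR7 was lost without replicate 1 or 2 of either SKOV3/DDP group, with adjusted p between 0.0546 and 0.12 (edgeR) and log2 fold changes of −0.75 to −0.56. It was also lost with scaling by library size alone (−0.58, adjusted p = 0.0645). After trend removal, which called 32.7% of all genes, 15.8% higher and 16.9% lower, it was −0.52 (SE 0.17, adjusted p = 0.0347, edgeR).

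The difference of the PAE response between the lines, tested as an interaction, passed for 6 of 7 genes, 3 in each direction, against a background of 62.9% of genes, 25.5% higher and 37.4% lower. It was largest for HMGCS1, whose log2 fold change with PAE in SKOV3/DDP minus that in SKOV3 was −4.98 (SE 0.60, adjusted p = 4.63e-06, edgeR). For LSS this difference was 3.42 (SE 0.60, adjusted p = 0.000132, edgeR), for IDI1 −3.41 and for SQLE −1.98. It was above 0 for DHCR7 (1.32, adjusted p = 0.00172, edgeR) and SREBF2 (1.11, adjusted p = 0.0248), while INSIG1 (−0.49, adjusted p = 0.409) did not pass. After trend removal, 3 of the 7 genes passed, against 42.2% of all genes, 19.3% higher and 23.0% lower: HMGCS1 (−2.20, SE 0.51, adjusted p = 0.00361, edgeR), SQLE (−0.85, SE 0.26, adjusted p = 0.0161) and LSS (2.29, SE 0.52, adjusted p = 0.00304). The call of SREBF2 was also lost without replicate 1 of SKOV3, replicate 1 or 3 of PAE-treated SKOV3, or replicate 3 of PAE-treated SKOV3/DDP, with differences of 0.84 to 1.01.

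With both lines under PAE, no untreated SKOV3 library enters the contrast, and HMGCS1 was lower in SKOV3/DDP. It alone passed the test, 1 of 7 genes against a background of 54.5% of all genes, 27.5% higher and 27.1% lower, and libraries did not overlap for 1 of the 7 and for 61.2% of genes. HMGCS1 was 3.03-fold lower in SKOV3/DDP (log2 fold change −1.60, SE 0.40, adjusted p = 0.0036, edgeR). It was −1.60 with the trend removed, where INSIG1 (0.87, adjusted p = 0.0367, edgeR) and DHCR7 (0.47, adjusted p = 0.0317) also passed, 3 of 7 against 60.0% of all genes, 30.5% higher and 29.4% lower. HMGCS1 was at −1.01 without replicate 1 of PAE-treated SKOV3, its highest library, with the call kept (adjusted p = 0.0278, edgeR). INSIG1 was next, with a log2 fold change of 0.76 (SE 0.35, adjusted p = 0.0764, edgeR), which became 1.49 (adjusted p = 0.000126) without that same library. SQLE stood at −0.06 (95% interval −0.56 to 0.44) and IDI1 at −0.13 (−0.81 to 0.56). LSS stood at 0.45 (−0.44 to 1.33), SREBF2 at −0.27 (−0.87 to 0.33) and DHCR7 at 0.33 (−0.14 to 0.80). Without replicate 2 of PAE-treated SKOV3, DHCR7 passed the test at 0.56 (adjusted p = 0.0442, edgeR).

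**Figure D2:**
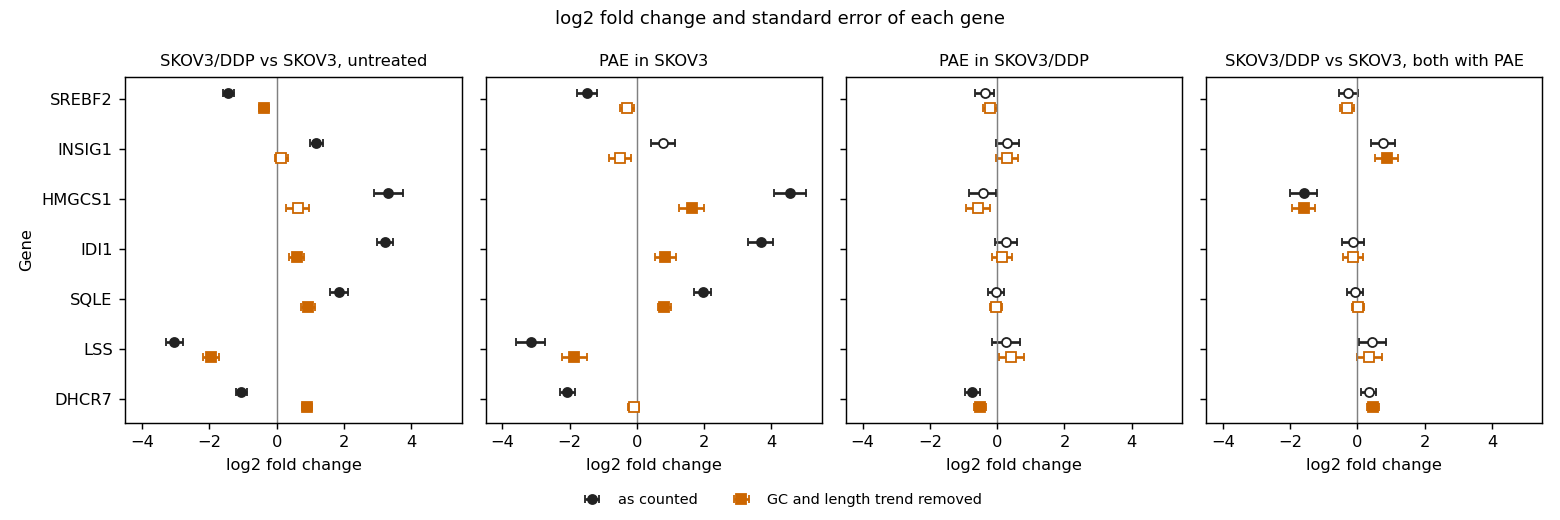
log2 fold change of the 7 genes (horizontal axis) in 4 comparisons, with bars of 1 standard error. Black circles are the values as counted, orange squares those with the trend on GC content and transcript length removed, and filled symbols passed an adjusted p of 0.05. DHCR7 moves from −1.06 to 0.89 between the untreated lines, and LSS from −3.04 to −1.95 there and from −3.16 to −1.87 for PAE in SKOV3.

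The wider pathway showed the same split by GC content. Of 20 enzymes from acetyl-CoA to cholesterol, 5 of them among the 7 genes, PAE in SKOV3 raised 8 and lowered 11, with a median log2 fold change of −0.90 against 0.48 over all genes tested. Of the 9 enzymes with less than 50% GC, 8 rose and 1, FDFT1, fell (median 3.25), and of the 11 with more, none rose and 10 fell (median −2.15). Over all genes, the median was 2.70 for those under 47% GC and −2.17 for those over 57%. These cuts differ from the 50% used for the enzymes. The shares of all genes called within GC classes are not given here, so the counts per class have no background beside them. After removal of the trend, the 20 enzymes counted 7 higher and 6 lower (median 0.11, all genes 0.19). Between the untreated lines 9 of the 20 were higher and 8 lower in SKOV3/DDP (median −0.0078, all genes 0.41), led by MSMO1, an oxygenase of sterol demethylation, at 4.64 (SE 0.43) and by MVD, which makes isopentenyl diphosphate, at −3.86 (SE 0.29). The trend removed, 8 were higher and 6 lower (median 0.13, all genes 0.11), and MSMO1 stood at 2.52 and MVD at −1.25, and both still passed edgeR's test.

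In SKOV3/DDP, PAE raised 3 of the 20 enzymes and lowered 3 (median −0.05, all genes 0.00). ACAT2, MVK and SC5D rose, and PMVK, TM7SF2 and DHCR7 fell. SC5D, the desaturase just before DHCR7 in the pathway, rose most, from 39.4, 40.6 and 36.3 CPM to between 92.9 and 129 CPM (log2 fold change 1.47, SE 0.22, adjusted p = 0.000371, edgeR), and TM7SF2, a sterol reductase, fell most (−1.52, SE 0.26, adjusted p = 0.00106). Neither pair of groups overlapped. With both lines under PAE, 5 enzymes were higher and 5 lower in SKOV3/DDP (median 0.31, all genes 0.06), with 2 higher and 1 lower of 9 enzymes under 50% GC and 3 higher and 4 lower of the 11 others. Of all genes, whatever their GC content, 27.5% were higher and 27.1% lower in that comparison. TM7SF2 was highest, at 2.99 (SE 0.29, adjusted p = 6.27e-07, edgeR), and HMGCS1 lowest. TM7SF2 was also higher in untreated SKOV3/DDP, at 55.5, 60.8 and 63.1 CPM against 10.7, 12.9 and 11.5 CPM in SKOV3 (log2 fold change 2.29, and 5.22 with the trend removed), and its transcript holds 64.2% GC.

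**Figure D3:**
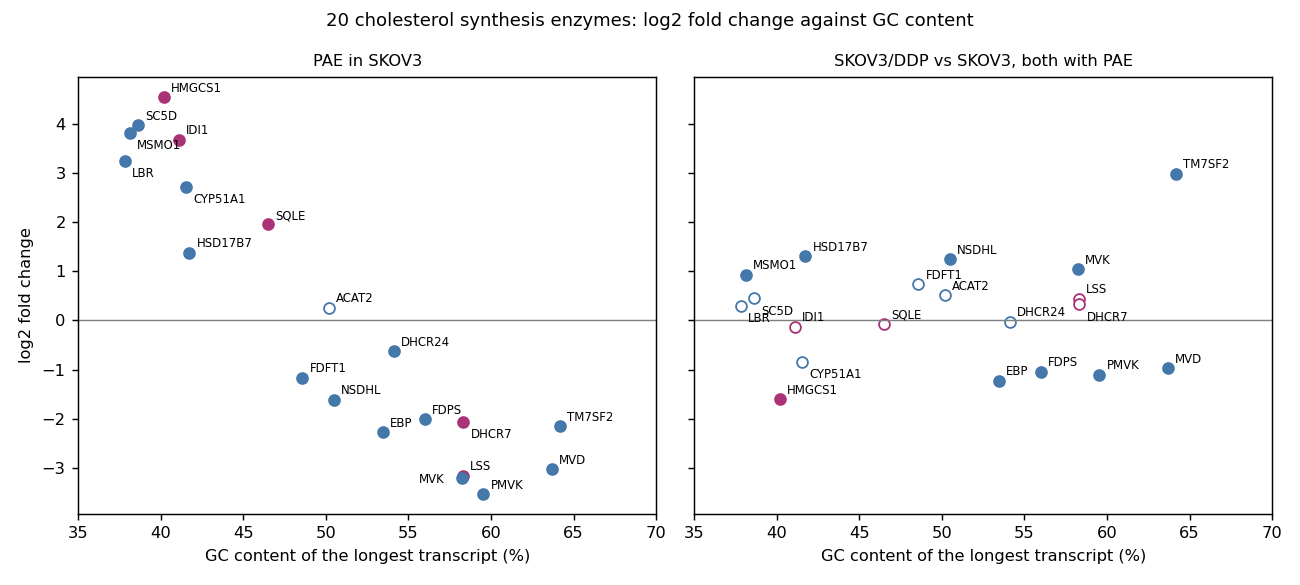
log2 fold change (vertical axis) of 20 cholesterol synthesis enzymes against the GC content of the longest transcript in percent, for PAE in SKOV3 on the left and for SKOV3/DDP against SKOV3 under PAE on the right. Purple points are members of the 7 genes, blue points other enzymes, and filled points passed an adjusted p of 0.05. On the left 8 of 9 enzymes under 50% GC lie above 0 and 10 of 11 others below it, and on the right the 2 classes overlap.

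For the lists that follow, the shares of all genes to read beside the counts are those given above. As counted, they were 46.1% higher and 38.5% lower between the untreated lines (median 0.41) and 42.6% and 32.7% for PAE in SKOV3 (median 0.48). With the trend removed they were 36.7% and 33.1% (median 0.11), and 28.4% and 22.0% (median 0.19). For PAE in SKOV3/DDP they were 11.8% and 14.7% as counted (median 0.00), and under PAE 27.5% and 27.1% (median 0.06).

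Among 11 regulators of SREBP, SREBF2 and INSIG1 included, 4 were higher and 6 lower in SKOV3/DDP before treatment (median −0.54). PAE in SKOV3 raised 3 and lowered 5 (median −0.30), PAE in SKOV3/DDP raised 1 and lowered 1 (median 0.22), and under PAE 2 were higher and 2 lower in SKOV3/DDP (median 0.21). Trend removal gave 3 higher and 6 lower between the untreated lines (median −0.38), and 2 higher and 3 lower with PAE in SKOV3 (median −0.27). SCAP, the escort of SREBP, fell most with PAE in SKOV3, from 417, 376 and 414 CPM to 46.0, 62.8 and 52.1 CPM (log2 fold change −2.91, SE 0.26, adjusted p = 8.15e-08, edgeR), and still fell with the trend removed (−0.81, adjusted p = 0.0065). INSIG2, the second INSIG gene, rose most (2.88, SE 0.25, adjusted p = 6.6e-08, edgeR), and stood at −0.15 (adjusted p = 0.62) with the trend removed. SREBF1, which encodes the related factor SREBP1, fell with PAE in SKOV3/DDP (−0.88, SE 0.20, adjusted p = 0.00565, edgeR), as the one regulator of the 11 that did. RNF139, a ubiquitin ligase of the endoplasmic reticulum, was the one that rose there (0.72, SE 0.21, adjusted p = 0.0194). Between the lines under PAE, MBTPS2 was lowest, at −1.82 (SE 0.38, adjusted p = 0.000968, edgeR), and SCAP highest, at 0.72 (SE 0.24, adjusted p = 0.0193).

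Of 10 genes of cholesterol uptake and transport, 9 were tested between the untreated lines, with 5 higher and 3 lower in SKOV3/DDP (median 1.21, the same with the gene at 0 set to its bound). After trend removal the median turned to −0.13, with 3 higher and 3 lower. STARD4, a carrier of cholesterol in the cytosol, had no count in any of the 6 SKOV3 libraries, treated or not, and 248 to 868 counts in each SKOV3/DDP library. Set against 3 counts over the group, it was at least 582-fold higher in SKOV3/DDP untreated and at least 371-fold higher with PAE. With PAE, 4 uptake genes rose and 4 fell in SKOV3 (median 0.30, and 1 and 3 with a median of −0.08 after trend removal), and 1 rose and 2 fell in SKOV3/DDP (median 0.07). SOAT1, which esterifies cholesterol for storage, rose most in SKOV3 (3.11, SE 0.31, adjusted p = 2.58e-07, edgeR), and stood at 0.16 (adjusted p = 0.461) with the trend removed. NPC2, which moves cholesterol out of lysosomes, was the gene that rose in SKOV3/DDP, from 148, 112 and 169 CPM to 311, 338 and 220.0 CPM (log2 fold change 1.02, SE 0.23, adjusted p = 0.00584, edgeR). Under PAE, 4 were higher and 4 lower in SKOV3/DDP (median 0.25).

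Of 8 LXR targets and efflux genes, which act when sterols are plentiful, 3 were higher and 5 lower in untreated SKOV3/DDP (median −1.88), and with the trend removed 2 were higher and 4 lower (median −0.61). ABCA1, the main cholesterol exporter, was at 9.93, 4.86 and 6.36 CPM in untreated SKOV3, at 67.0, 53.2 and 65.1 CPM after PAE, and at no more than 1.96 CPM in the 6 SKOV3/DDP libraries. ABCA1 rose with PAE in SKOV3 as counted (3.13, SE 0.37, adjusted p = 1.53e-06, edgeR) and with the trend removed (1.13, adjusted p = 0.0077). APOE, an acceptor of exported cholesterol, was the highest of the list in SKOV3/DDP against SKOV3, at 2.43 untreated (SE 0.18, and 5.45 with the trend removed) and 4.77 with PAE (SE 0.29, adjusted p = 6.49e-09, edgeR). ABCG1 was the lowest, at −9.23 untreated (SE 0.55, and −8.99 with the trend removed) and −6.66 with PAE (SE 0.45). Its mean was 146 CPM in untreated SKOV3 and 0.248 CPM in untreated SKOV3/DDP. PAE in SKOV3 raised 3 of the 8 and lowered 5 (median −1.35), or 2 and 4 with the trend removed (median −0.22). PAE in SKOV3/DDP lowered 1, the LXR gene NR1H3 (−1.65, SE 0.21), and raised none (median 0.46), or 2 with the trend removed. Under PAE, 1 was higher and 4 lower in SKOV3/DDP (median −0.72).

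Of 10 fatty acid genes driven mainly by SREBP1, PAE raised 5 and lowered 3 in SKOV3 (median 0.57), and lowered 3 and raised none in SKOV3/DDP (median −0.33). With the trend removed, 2 rose and 2 fell in SKOV3 (median 0.10), and 2 rose and 3 fell in SKOV3/DDP (median −0.24). SCD, FADS1 and ACSS2 were those that fell in SKOV3/DDP, SCD most (−0.97, SE 0.25, adjusted p = 0.0108, edgeR). Between the untreated lines 4 were higher and 4 lower (median −0.02), or 2 and 3 with the trend removed (median −0.14), and under PAE 2 were higher and 3 lower (median 0.05). Of 9 enzymes of other mevalonate branches, 8 were tested, and PAE in SKOV3 raised 7 and lowered 1 (median 2.28). GGPS1, which makes the lipid anchor for protein prenylation, rose most (3.72, SE 0.30, adjusted p = 3.9e-08, edgeR), and stood at 0.97 with the trend removed. With the trend removed, 3 of the 8 rose and 3 fell (median −0.16). PAE in SKOV3/DDP lowered 1 of the 8, COQ2 (−1.12, SE 0.26), and raised none (median −0.03). Between the untreated lines 7 were higher and 1 lower (median 2.53), or 5 and 0 with the trend removed (median 0.86), and under PAE 2 were higher and 1 lower (median 0.24).

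The 7 genes form 2 blocks by GC content, under and over 50%. Within groups and as counted, they correlated more within these blocks than between them. After the group means were removed, the pairwise Pearson correlations of log2(CPM + 1) over the 12 libraries were 0.525 to 0.859 among INSIG1, HMGCS1, IDI1 and SQLE, 0.787 to 0.845 among SREBF2, LSS and DHCR7, and −0.317 to 0.310 between the blocks. With the trend removed as well, they were 0.233 to 0.823, 0.800 to 0.872 and −0.432 to 0.244. The lowest value within the first block was then below the highest between the blocks. Such correlations of other genes of like GC content are not given here. These correlations describe 12 libraries, whose genes share depth, scaling and base composition. The deviations were largest in few libraries. In PAE-treated SKOV3, replicate 1 was the highest of the 3 for INSIG1, HMGCS1, IDI1 and SQLE, and replicate 2 for SREBF2, LSS and DHCR7. The deviation of replicate 2 from its group rose with GC content (Spearman's rho 0.664 over 11201 genes), while those of replicates 1 and 3 fell with it (−0.324 and −0.417). In PAE-treated SKOV3/DDP, replicate 3 was the highest for 7 of the 7 genes and for 12 of the 20 enzymes, against 38.5% of all genes. Its share of mitochondrial counts was 3.93%, against 6.76% and 8.67% in the others of that group, and the part of these differences in the result was not tested.

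**Figure D4:**
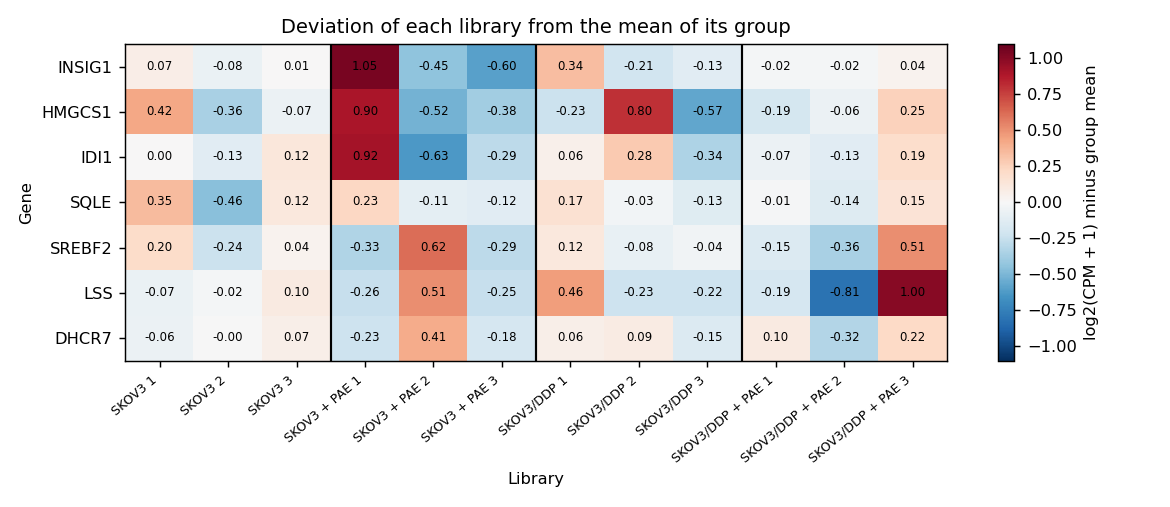
log2(CPM + 1) of each of the 7 genes (rows) in each of the 12 libraries (columns, grouped by the black lines) minus the mean of its group, printed in each cell and coloured from blue (below) to red (above). The values of PAE-treated SKOV3 replicate 1 are 0.23 to 1.05 for the upper 4 genes and below 0 for the lower 3, and those of PAE-treated SKOV3/DDP replicate 3 are above 0 for all 7.

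By the correlation of log2(CPM + 1) over the 12 libraries, among 9948 genes with a mean of at least 10 CPM, the 2 genes most like each of the 7 were found. SREBF2 was most like TRAF7 (r = 0.984) and TTC7A (0.976), and INSIG1 most like MYLIP (0.915) and VSIG10 (0.910). MYLIP, an LXR target, was the one of these genes that is on a list used here. HMGCS1 was most like ZC3H7A (0.981) and TAF1A (0.981), IDI1 like CDC14A (0.991) and ABHD17B (0.989), and SQLE like TMCC1 (0.994) and CAB39 (0.994). LSS was most like SZRD1 (0.991) and LRP10 (0.988), and DHCR7 like PLEKHG3 (0.987) and TMCC2 (0.986). Within each pair of likeness both genes lay on the same side of 50% GC. These correlations include the untreated SKOV3 libraries with their GC trend, and likeness was not computed with the trend removed. Among INSIG1, HMGCS1, IDI1 and SQLE, trend removal moved such correlations from 0.537 to 0.967 as counted to −0.322 to 0.647. Among SREBF2, LSS and DHCR7 it moved them from 0.874 to 0.949 to −0.224 to 0.771.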

How the data were processed

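RNA was captured with poly-T beads and sequenced from 12 libraries of untreated or PAE-treated SKOV3 and SKOV3/DDP cells. The authors deposited 1 table of raw counts per gene, in whole numbers, for every library. HISAT2 2.0.5, StringTie 1.3.3b, DESeq2 and edgeR are named in the submitters' processing notes, without their roles, and the strand and annotation release of the counting are not given in the sources used here. Totals ran from 14610008 to 18263479 counts, and 869 loci without a gene name (0.126% to 0.678% of counts) were left out.

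In R 4.3.3, edgeR 4.0.16 filtered genes with filterByExpr, scaled by TMM and tested groups by quasi-likelihood with Benjamini-Hochberg adjustment at 0.05 over all genes. The 6 untreated libraries were fitted alone (15323 genes), and the other comparisons came from 1 fit of 12 libraries (17133 genes). The SE is the log2 fold change over the root of F. Alternatives were DESeq2 1.42.0, limma-voom (limma 3.58.1), library size only, no filter, a replicate block, other sets of libraries, each library left out, and removal of a curve on GC content and transcript length (GENCODE 29, splines with 5 degrees of freedom, fitted as offsets). Removing that curve from the levels and their correlations was added after seeing the data. Where a group had no count of a gene, 3 counts over the group set the bound, in CPM of library totals without TMM scaling. It covers counting error only. The fits were also tested on simulated data.

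Libraries were treated as unpaired. The 7 genes, the lists and the tests were chosen with earlier results of these data known. The genes named are the 7, a set list of genes of sterol and lipid metabolism, the highest and lowest called gene of each list, and the 2 genes most correlated with each of the 7. ACAT2 was named after its values were seen. A few genes of the set list and the gene lists are not reported here and were left out of the lists' counts. SQLE had no promoter window in the RefSeq table. Sequences of proteins were not used here.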

Additional observations from a re-analysis of the deposited data

Results flagged for a closer look

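The response of 6 of the 7 genes to PAE differed between the lines by the interaction term of the edgeR fit, as did that of 62.9% of all genes. The log2 fold change in SKOV3/DDP minus that in SKOV3 was −4.98 for HMGCS1, −3.41 for IDI1 and −1.98 for SQLE, 3.42 for LSS, 1.32 for DHCR7 and 1.11 for SREBF2. The genes with a difference below 0 have 40.2% to 46.5% GC and those above it 57.1% to 58.3%. Over all genes, the median difference was −2.51 under 47% GC and 1.90 over 57%. After trend removal the differences were −2.20 for HMGCS1, −0.85 for SQLE and 2.29 for LSS, which passed the test, and −0.70 for IDI1, 0.07 for SREBF2 and −0.42 for DHCR7, which did not. Of all genes, 42.2% passed it after the removal. All 6 differences contain the untreated SKOV3 libraries, from which the GC trend cannot be told apart.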

How the results depend on the processing

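Removal of the trend on GC content and length changed most. It turned DHCR7 to 0.89 between the untreated lines, INSIG1 to −0.50 for PAE in SKOV3, INSIG1 to 0.79 and DHCR7 to −0.42 for the difference between the lines, and SQLE to 0.0116 between the lines under PAE. Of 15090 genes with known GC content and length it called 7600 for PAE in SKOV3, in place of 12895 of 17133, and 6375 in place of 10778 for the difference between the lines, where 3 of the 7 genes passed. Under PAE it called 3 of the 7 in place of 1 (HMGCS1, INSIG1 and DHCR7), and limma-voom and the fit with no filter on low counts called 2 (HMGCS1 and INSIG1). Of all genes, trend removal called 60.0% under PAE, in place of 54.5%. The shares in the limma-voom and no-filter fits are not given here, so their counts have no background beside them. The study's methods set p under 0.05 without adjustment and a log2 fold change beyond 2 in size, with limma. Applied here to the edgeR fit of the untreated lines, these thresholds passed 3 of the 7, HMGCS1, IDI1 and LSS. The share of all genes under them is not given here, so that count has no background beside it. Other reversals were near 0: SQLE at 0.14 for PAE in SKOV3/DDP by library size only, and IDI1 at 0.0350 under PAE by limma-voom. Library size only raised the median of all genes by 0.75 between the untreated lines and by 0.87 for PAE in SKOV3, where 9058 genes were higher and 3834 lower, against 7292 and 5603. By library size only, the split for PAE in SKOV3/DDP moved from 2014 and 2512 to 2889 and 1913, with 0 of the 7 genes called, and for the difference from 4374 and 6404 to 3088 and 7808. The size factors of DESeq2 moved the median of all genes by −0.21 between the untreated lines and −0.28 for PAE in SKOV3.

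With the replicate number as a block, 2 of the 7 genes passed under PAE, INSIG1 being added at 0.91, and no other call among the 7 changed. The share of all genes passing under PAE with the block is not given here. For PAE in SKOV3 the block fit called 12701 genes against 12895, and for PAE in SKOV3/DDP 3997 against 4526. Deviations of same-numbered libraries from their group means correlated at −0.171 to 0.117, and no pair of groups had all 3 above 0.1. The libraries were therefore treated as unpaired. This check cannot exclude pairing, since the deviations also follow the GC content of genes within groups.

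Leaving out each library in turn gave 0 to 1 of the 7 genes for PAE in SKOV3/DDP, 1 to 2 under PAE, 6 to 7 for PAE in SKOV3, 5 to 6 for the difference and 7 between the untreated lines. Most genes were called in most of these fits. Of all genes, 8401 to 9023 were called under PAE and 12372 to 12778 for PAE in SKOV3. For the difference 10212 to 10727 were called, and between the untreated lines 12727 to 13343. For PAE in SKOV3/DDP, 2815 to 4349 genes were called, lowest without replicate 1 of SKOV3/DDP, and 2837 without replicate 3. In that comparison HMGCS1 ran from −0.66 to 0.0933, SQLE from −0.0690 to 0.0974 and LSS from −0.45 to 0.64. The INSIG1 difference between the lines ran from −0.74 to 0.28. Under PAE, SREBF2 ran from −0.58 to 0.10, IDI1 from −0.42 to 0.48, SQLE from −0.14 to 0.0515 and LSS from −0.30 to 0.79. LSS rests on as few as 96 counts in a library outside untreated SKOV3. With 3 libraries a group, differences inside the intervals given were not detectable.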
